A study of Sus scrofa with 9 samples.

Results

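The names miR-2478, miR-3968, miR-1260, miR-1261 and miR-11987 were examined in small RNA libraries of pig (Sus scrofa) oocytes, 1-cell embryos and sperm. Their members were found by name, as every entry of the count table that carried 1 of these 5 numbers with any species prefix, arm or end variant. The rule gave 35 of the 1313 names in the table, of which 7 belonged to miR-2478, 6 to miR-3968, 18 to miR-1260, 1 to miR-1261 and 3 to miR-11987. The 5 numbers were selected on their counts in these libraries, chosen by levels that earlier results had shown to be higher in oocytes and embryos than in sperm, so their levels against sperm are given as a description. The comparison of embryos with oocytes did not enter that choice, but the miR-1260 names were already known to be higher in embryos, and their values in it are a description as well.

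The 3 groups compared had 3 libraries each, all labelled as untreated. MII oocytes were eggs arrested at the second meiotic metaphase, matured in vitro from ovaries of postpubertal gilts and stripped of cumulus cells, and PN embryos were pronuclear 1-cell embryos made by in vitro fertilization. The third group was purified fresh sperm. RNA came from large pools of oocytes or embryos, and the methods name Large White boars for the sperm libraries but Landrace boars for the semen used in fertilization. Nothing in the labels says that the 3 libraries of a group came from separate pools, so the p-values measure the spread between libraries, which may be technical.

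A miRNA is a short RNA that is cut from a hairpin precursor and pairs with messenger RNAs through its seed, bases 2 to 8. Small RNA libraries also capture pieces of other noncoding RNA, among them fragments of transfer RNA (tRNA), which are abundant in germ cells. A mature tRNA ends in CCA, a tail that an enzyme adds after transcription, and fragments from its 3′ end keep these letters. Several miRNA numbers, miR-1260 among them, have since been described as matching the 3′ end of a tRNA.

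Sequences were at hand for the most abundant names of miR-2478 and miR-3968, because the study synthesized mimics of both. They are shown, with the seed in capitals, because the counts of these names rest on very similar molecules.
bta-miR-2478_L-2: aUCCCACUucugacacca
mmu-miR-3968_L-3_1ss14AT: aUCCCACUccugacacca
Both were 18 bases long and had the same seed, UCCCACU. They differed by a single substitution, U9C, counted from the 5′ end with the miR-2478 base first. The same sequences are shown again with their last 3 bases in capitals.
bta-miR-2478_L-2: aucccacuucugacaCCA
mmu-miR-3968_L-3_1ss14AT: aucccacuccugacaCCA
Both ended in CCA. No tRNA sequence was used here, so a match to a tRNA was not tested, and sequences of the other members are not given.

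The study placed a binding site for both mimics in circRNA-1572, a circular RNA of 785 bases. The letters complementary to the seed, AGUGGGA, occurred once in its listed sequence, at bases 88 to 94, and are shown in capitals with 10 bases on either side.
circRNA-1572, bases 78 to 104: uggaggaggcAGUGGGAaaaguugaag
Laid along this site without gaps, 12 of the 18 bases of each mimic were complementary. The base by which they differ left this count the same, and this match of letters is a description rather than a measured interaction. The study did measure binding, in porcine fibroblasts. Both mimics lowered the activity of a luciferase reporter that carried its predicted site. A circRNA-1572 probe enriched bta-miR-2478_L-2 in a pulldown from fibroblasts overexpressing circRNA-1572, whereas mmu-miR-3968_L-3_1ss14AT was not detected there. In PN embryos the study also reported some co-localization of circRNA-1572 and bta-miR-2478_L-2. Knockdown of circRNA-1572 raised the level of bta-miR-2478_L-2 in later embryos.

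The names describe end variants. In the provider's style, L-2 marks a 5′ end shorter by 2 bases than the listed miRNA, R+1 a 3′ end longer by 1 base, and 1ss14AT a single A-to-T change at base 14 of the listed miRNA. This reading is not given in the sources used here, but in the 4 names that could be laid on a mimic the stated position held the stated base. Of the 35 names, 14 had a shortened and 5 an extended 5′ end, 13 an extended and 3 a shortened 3′ end, and 18 a substitution. The names rest on 30 distinct rows of counts. At least 2 of the names shared their counts with a name outside the 5 numbers, as names on several rows were compared only by their summed counts. Only cgr-miR-1260 and mml-miR-1260b had neither an altered end nor a substitution, and no name had the pig prefix. All members of miR-3968, miR-1261 and miR-11987 carried a substitution, against 4 of 7 in miR-2478 and 4 of 18 in miR-1260.

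Levels are given as CPM, the count scaled to a library total of 1000000. Totals were 289183 to 381674 counts in MII oocytes, 422630 to 771001 in PN embryos and 1640492 to 2455102 in sperm, so that depth and group cannot be told apart. In such bulk samples a change in the RNA of each cell and a change in the cells that contribute cannot be told apart either. A listed 0 could stand for up to 5 counts, equal to 13.1–17.3 CPM in MII oocytes, 6.49–11.8 in PN embryos and 2.04–3.05 in sperm. The sperm markers miR-34c, miR-449a and miR-34b summed to 150800–153000 CPM in sperm, against 2036–2099 in MII oocytes and 2250–2455 in PN embryos. Between the egg stages these markers went in opposite directions, with means of 1446 and 1150 CPM for miR-34c, 588 and 1113 CPM for miR-34b and 38.8 and 78.7 CPM for miR-449a. The oocyte and early embryo markers miR-371 and miR-302 summed to 1089–1286 CPM in MII oocytes and 1106–1267 in PN embryos and were listed at 0 in sperm. miR-302 itself was listed at 0 in MII oocytes. Of the follicle cell markers, miR-202 had a mean of 919 CPM in the oocytes, 862 in the embryos and 15.1 in sperm, while miR-383 had 93.1, 118 and 686 CPM, so that their sums of 702–1234, 925–1024 and 662–743 CPM rest on different miRNAs in sperm. Markers of blood (miR-451, miR-486 and miR-144) summed to 166–254 CPM in MII oocytes, 788–822 in PN embryos and 160–260 in sperm, with no overlap between oocytes and embryos. Their part in the results that follow was not tested.

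All members together held 1.44% of the counts in MII oocytes, 2.29% in PN embryos and 0.0306% in sperm. Expressed as CPM ± SD (n = 3), miR-2478 had 3734 ± 97.4 in MII oocytes, 4318 ± 43.0 in PN embryos and 27.8 ± 7.38 in sperm. miR-3968 had 4388 ± 140, 7621 ± 92.8 and 16.4 ± 5.86 CPM in the same order. miR-1260 had 4742 ± 220, 9283 ± 268 and 120 ± 4.82 CPM, which in the egg stages placed it above miR-3968 only where identical rows are summed. miR-1261 had 1544 ± 51.4 CPM in MII oocytes and 1223 ± 14.4 in PN embryos and was listed at 0 in every sperm library. miR-11987 did not follow the others, with 28.0 ± 19.5 CPM in MII oocytes, 417 ± 26.8 in PN embryos and 142 ± 17.1 in sperm. For that number the description as an oocyte and embryo RNA did not hold in MII oocytes, all of which lay below all 3 sperm libraries.

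**Figure D1:**
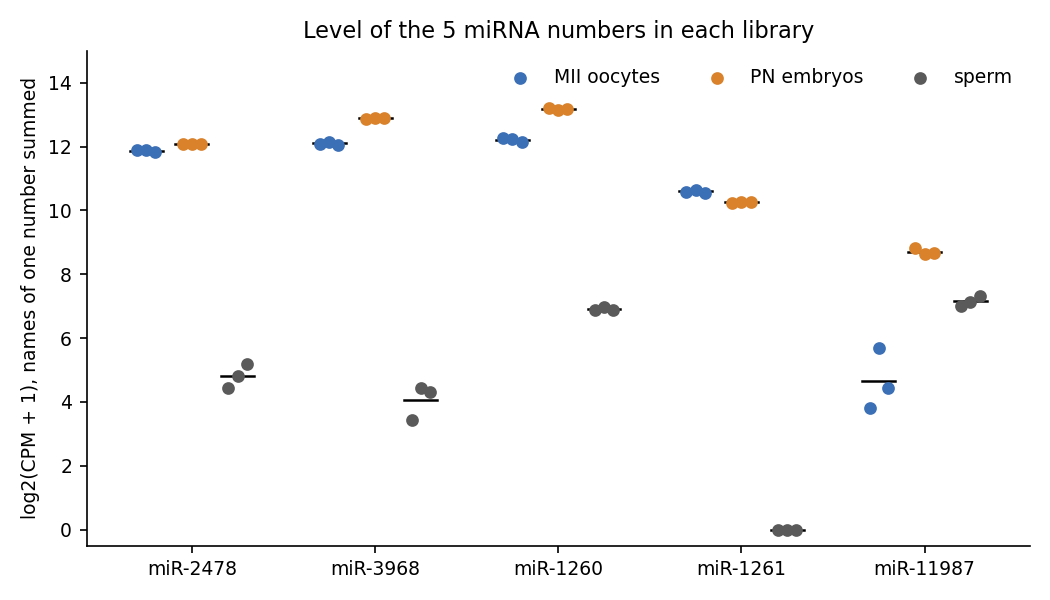
Each point is 1 library, with the summed names of each miRNA number on the x axis and log2(CPM + 1) on the y axis, and the bars are group means on that scale. MII oocytes and PN embryos lay far above sperm for 4 numbers, while for miR-11987 sperm (126–160 CPM) lay between MII oocytes (13.1–50.1 CPM) and PN embryos (397–447 CPM).

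The most abundant names were ranked high in both egg stages. mmu-miR-3968_L-3_1ss14AT was listed at 4192, 4431 and 4122 CPM in MII oocytes, 7311, 7472 and 7453 in PN embryos and 9.75, 9.81 and 12 in sperm. It ranked 18th of all names in MII oocytes, 15th in PN embryos and 430th in sperm. cgr-miR-1260 had 4142, 4004 and 3804 CPM in MII oocytes, 7489, 7285 and 7524 in PN embryos and 55.5, 51.9 and 56.6 in sperm. Its libraries overlapped those of mmu-miR-3968_L-3_1ss14AT in both egg stages. Within each MII oocyte library it lay below this neighbor, while in PN embryos the order of the neighbors varied between libraries. With each repeated name counted once, cgr-miR-1260 had 45.2–49.4 counts for every 100 of mmu-miR-3968_L-3_1ss14AT in MII oocytes and 48.8–51.2 in PN embryos. bta-miR-2478_L-2 had 3671, 3766 and 3551 CPM in MII oocytes, 4259, 4213 and 4175 in PN embryos and 20.7, 27.1 and 35.4 in sperm. It lay below the other neighbors in both stages, but its level and that of cgr-miR-1260 rest on summing 2 table rows of each name. eca-miR-1261_L+4_1ss5GC came next, with 1530, 1601 and 1501 CPM in MII oocytes and 1207, 1234 and 1228 in PN embryos.

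Against sperm, the mean level in MII oocytes was 404-fold higher for mmu-miR-3968_L-3_1ss14AT, 132-fold higher for bta-miR-2478_L-2 and 72.9-fold higher for cgr-miR-1260. In PN embryos the corresponding folds were 704, 152 and 136. Since eca-miR-1261_L+4_1ss5GC was at 0 in sperm, its level was at least 581-fold higher in MII oocytes and at least 460-fold higher in PN embryos, taken against 5 counts in each sperm library. mml-miR-1260b was likewise at 0 in sperm and at least 83.3-fold higher in MII oocytes. Of the 24 members that passed the filter on low counts, 17 were called lower in sperm than in MII oocytes, where 40.7% of all 587 names tested were, and 22 lower than in PN embryos, where 47.4% of all names were. A call needed an adjusted p-value (q) under 0.05 together with a change of at least 1 in either direction on the log2 scale. Nothing is read from these counts, because the sperm contrast chose the members.

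Setting PN embryos against MII oocytes asks how these RNAs stood after fertilization. mmu-miR-3968_L-3_1ss14AT rose by 0.73 ± 0.06 (SE) on the log2 scale, a 1.74-fold higher mean CPM, with q = 1.07e-05 (quasi-likelihood test of edgeR, Benjamini-Hochberg over all names). Its 3 PN embryo libraries all lay above its 3 MII oocyte libraries. bta-miR-2478_L-2, which shares its seed, differed by 0.13 ± 0.09 with edgeR q = 0.345, although its libraries did not overlap either. eca-miR-1261_L+4_1ss5GC fell by 0.41 ± 0.07 with edgeR q = 0.00390, below the fold needed for a call. That q passed 0.05 when names with identical counts were merged (0.309), without MII oocytes replicate 1 (0.234) and without PN embryos replicate 2 (0.0676). cgr-miR-1260 was 0.83 ± 0.05 higher on the log2 scale, a 1.87-fold higher mean CPM.

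The most abundant names can be set against each other within a library, where depth cancels. The ratios that follow rest on summing the 2 identical rows of bta-miR-2478_L-2 and of cgr-miR-1260. For every 100 counts of bta-miR-2478_L-2, mmu-miR-3968_L-3_1ss14AT had 114, 118 and 116 counts in MII oocytes and 172, 177 and 179 in PN embryos. cgr-miR-1260 had 113, 106 and 107 in MII oocytes and 176, 173 and 180 in PN embryos. eca-miR-1261_L+4_1ss5GC went the other way, from 41.7, 42.5 and 42.3 to 28.3, 29.3 and 29.4. None of these 3 ratios overlapped between the stages. Set against mmu-miR-3968_L-3_1ss14AT, cgr-miR-1260 had 98.8, 90.4 and 92.3 counts for every 100 in MII oocytes and 102, 97.5 and 101 in PN embryos, which overlapped. With each repeated name counted once, miR-3968 had 228–235 counts for every 100 of bta-miR-2478_L-2 in MII oocytes and 343–357 in PN embryos, miR-1261 had 83.4–85.0 and 56.7–58.8, and the ratio of cgr-miR-1260 to bta-miR-2478_L-2 was the same. The ratios were picked with the levels in view and were not tested. In sperm, where bta-miR-2478_L-2 had only 34, 47 and 87 counts, mmu-miR-3968_L-3_1ss14AT had 47.1, 36.2 and 33.9 for every 100.

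**Figure D2:**
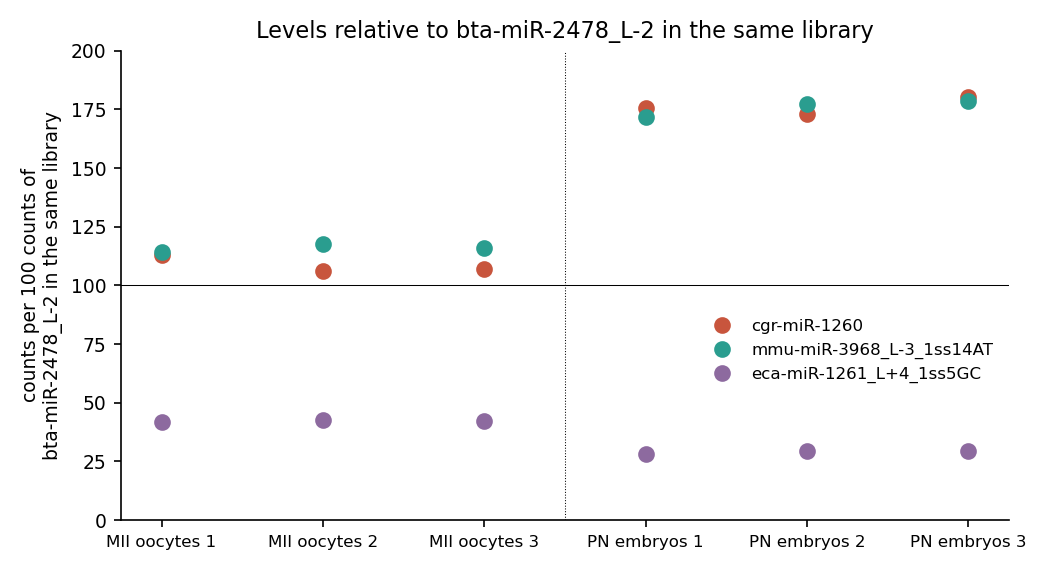
Counts of 3 names per 100 counts of bta-miR-2478_L-2 (y axis) in each MII oocyte and PN embryo library (x axis), with a line at equal counts, both table rows of bta-miR-2478_L-2 and of cgr-miR-1260 summed. miR-3968 and miR-1260 moved together from 106–118 to 172–180, while miR-1261 moved from 41.7–42.5 to 28.3–29.4.

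Over all members, 11 of the 24 tested were called higher in PN embryos, against 11.2% of all names, and 0 were called lower by edgeR, against 1.7%. By q alone, 15 were higher, against 16.7% of all names, and 1 was lower, against 8.52%, while 209 of all 587 names had an unadjusted p under 0.05. The libraries did not overlap in 21 members that were higher and 1 that was lower, against 26.9% and 12.6% of all names. The median log2 fold change was 1.2 over the members tested and 0.0832 over all names. These counts are a description, since 3 of the members were listed at 0 in all MII oocyte libraries and passed the filter only through the groups that held them. These 3, bta-miR-2478_L-2_1ss20AT, bta-miR-11987_L-1_1ss8TA and bta-miR-11987_L-2_1ss8TA, are among the 11 calls, and the filter removed them where only the compared groups were fitted. Also among the calls, cgr-miR-1260_1ss18AT passed the filter only through PN embryos, where it is high. cgr-miR-1260_L+2 and mmu-mir-3968-p3_1ss11AT, which were not called, likewise needed PN embryos to pass it. The 11 calls rest on 7 distinct sets of counts, because 5 names, cgr-miR-1260_R+2_1 to cgr-miR-1260_R+2_5, share the same reads. By number, 7 of 14 tested miR-1260 names were called, with 3 of 3 in miR-11987, 1 of 3 in miR-2478, 0 of 3 in miR-3968 and 0 of 1 in miR-1261. The count of 11 fell to 6 without MII oocytes replicate 2, to 7 without MII oocytes replicate 3 and to 5 without PN embryos replicate 1, and every name lost there was a miR-1260 name with an extended 3′ end.

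**Figure D3:**
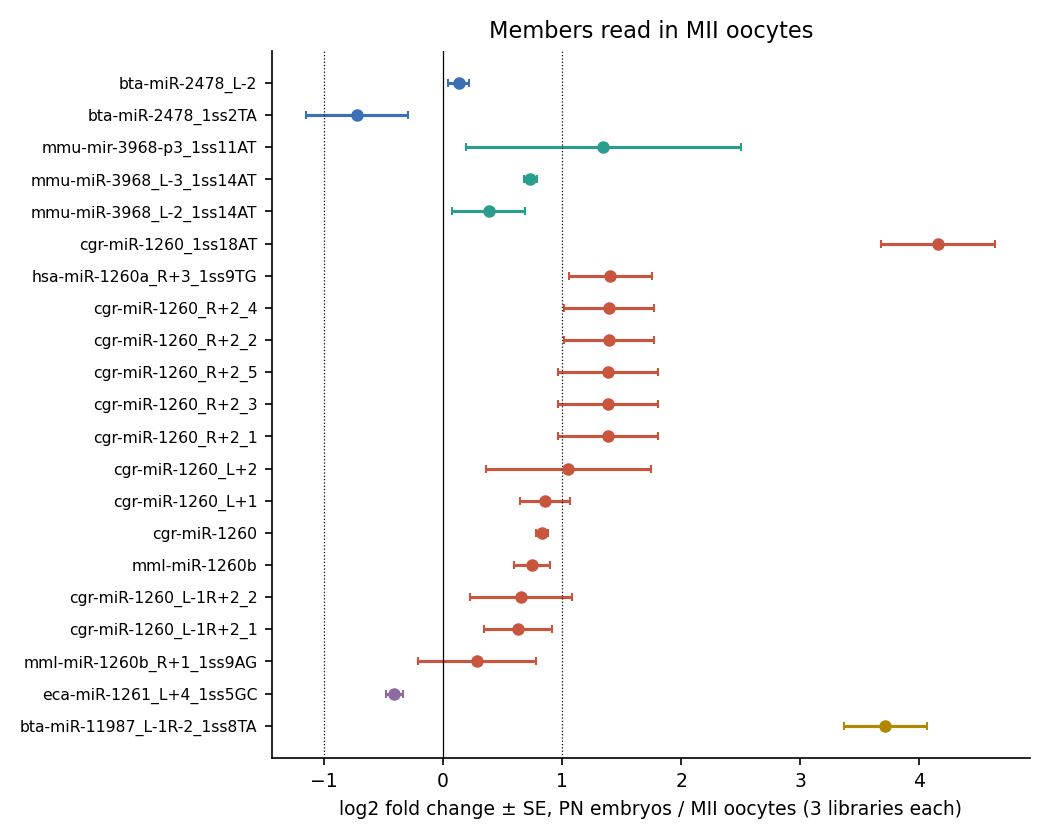
log2 fold change ± SE of PN embryos against MII oocytes (x axis) for the 21 tested members that were read in MII oocytes, with dotted lines at the fold needed for a call. Most names lay above 0, and cgr-miR-1260_1ss18AT (4.16 ± 0.48) and bta-miR-11987_L-1R-2_1ss8TA (3.71 ± 0.35) lay farthest out. cgr-miR-1260_1ss18AT, cgr-miR-1260_L+2 and mmu-mir-3968-p3_1ss11AT needed PN embryos, where they are higher, to pass the filter on low counts.

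The miR-1260 names with altered ends were less abundant than the plain name. Those named R+2 or R+3 with an unaltered 5′ end had larger folds than it, while mml-miR-1260b_R+1_1ss9AG had a smaller fold of 1.27. The fitted log2 differences were 1.39 ± 0.38 for cgr-miR-1260_R+2_2 and 1.41 ± 0.35 for hsa-miR-1260a_R+3_1ss9TG, against 0.83 ± 0.05 for the plain name. cgr-miR-1260_R+2_2, with a 3′ end longer by 2 bases, had 80.0 ± 3.88 CPM in MII oocytes and 223 ± 46.1 in PN embryos, a 2.79-fold higher mean. hsa-miR-1260a_R+3_1ss9TG had 35.3 ± 13.4 and 98.7 ± 13.8 CPM, a 2.80-fold higher mean. Names with an altered 5′ end had folds on either side of that of the plain name, and whether the folds differ was not tested. cgr-miR-1260_L+1 had 76.0, 70.2 and 93.4 CPM in MII oocytes and 166, 132 and 159 in PN embryos, a 1.91-fold higher mean, and cgr-miR-1260_L-1R+2_1 had 53.0 ± 12.1 and 86.2 ± 5.40 CPM, a 1.63-fold higher mean. mml-miR-1260b, listed without end change, went from 244, 241 and 180 to 416, 387 and 379 CPM, a 1.78-fold higher mean, and held 4.73–6.01 counts per 100 of cgr-miR-1260 in MII oocytes and 5.03–5.56 in PN embryos. cgr-miR-1260_L+2 had 16.5 ± 14.4 and 36.9 ± 6.72 CPM. It would not have passed the filter on low counts without PN embryos, where it is high, so its fitted log2 difference of 1.05 ± 0.69 is a description. mml-miR-1260b_R+1_1ss9AG, at 27.1 ± 3.28 and 34.4 ± 21.7 CPM, overlapped between the stages, and cgr-miR-1260_L-1R+2_2 shared its reads with cgr-miR-1260_L-1R+2_1.

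The largest fitted difference of a miR-1260 name, 4.16 ± 0.48 on the log2 scale, belonged to a name with a substitution near the 3′ end. cgr-miR-1260_1ss18AT, with a T for the A at base 18, was listed at 13.1, 0 and 17.3 CPM in MII oocytes, 159, 211 and 210 in PN embryos and 7.31, 14.4 and 12.2 in sperm. The MII oocyte values stand for 5, 0 and 5 counts. The name passed the filter on low counts only through PN embryos, where it is high, so its fitted difference is a description. As a share of its counts and those of cgr-miR-1260 together, it made up 0.315% (95% exact Clopper-Pearson interval 0.102–0.734), 0% (0–0.307) and 0.452% (0.147–1.05) in MII oocytes. In PN embryos the share was 2.07% (1.61–2.62), 2.82% (2.39–3.31) and 2.72% (2.32–3.16), above all MII oocyte intervals. In sperm it was 11.7% (6.17–19.5), 21.7% (14.6–30.4) and 17.8% (12.3–24.4), on 103 to 169 counts. The intervals cover counting error only, as PCR duplicates could not be removed from these reads. The shares rest on summing the 2 identical rows of cgr-miR-1260, while cgr-miR-1260_1ss18AT is on 1 row. With each row counted once they would be higher.

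A substitution at the last base of the miR-2478 mimic was also listed, at a lower share. bta-miR-2478_L-2_1ss20AT, a T in place of the final A of CCA, was listed at 0 in MII oocytes and sperm and at 21.3, 36.0 and 27.2 in PN embryos. It lay just under the mean of 10 CPM set for names described here and was picked after its values were seen. Its mean in PN embryos was at least 1.79-fold higher than in MII oocytes, taken against 5 counts in each MII oocyte library. No test is given, because it passed the filter only through the group where it is high. Of its counts and those of bta-miR-2478_L-2 together, it held 0.498% (0.228–0.942), 0.846% (0.548–1.25) and 0.648% (0.402–0.989) in PN embryos. The 0 counts in MII oocytes allow a share of 0.357% to 0.487%, so that the intervals of PN embryos replicates 1 and 3 were not clear of them. bta-miR-2478_L-2_1ss19CA, which changes the base before it, held 0.155% to 0.443% in PN embryos, within what the 0 counts in MII oocytes allow.

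**Figure D4:**
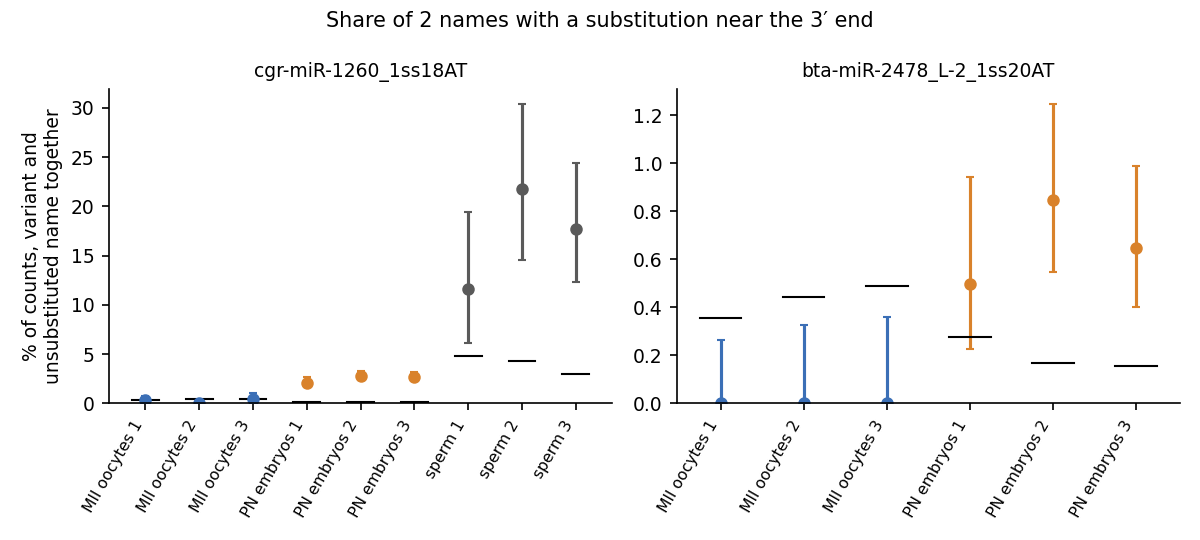
Share (%) of a name with a substitution near its 3′ end among its own counts and those of the unsubstituted name, by library, with 95% exact intervals as bars and the share that 5 counts would give as short black lines. For cgr-miR-1260_1ss18AT PN embryos (2.07–2.82%) lay between MII oocytes (0–0.452%) and sperm (11.7–21.7%). For bta-miR-2478_L-2_1ss20AT PN embryos held 0.498–0.846% against 0 in MII oocytes. Repeated table rows of a name were summed.

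Of the less abundant names, 1 further name each of miR-2478 and miR-3968 had a mean of at least 10 CPM, and neither passed the test. bta-miR-2478_1ss2TA had 96.9, 43.4 and 51.9 CPM in MII oocytes, 47.3, 30.2 and 46.7 in PN embryos and 0 in sperm, with a log2 difference of -0.72 ± 0.43 and edgeR q = 0.299. mmu-miR-3968_L-2_1ss14AT, with a 5′ end 1 base longer than the main name, had 130, 114 and 152 CPM in MII oocytes and 173, 181 and 189 in PN embryos, a difference of 0.39 ± 0.31 with edgeR q = 0.427. In MII oocytes and PN embryos bta-miR-2478_L-2 made up 97.3–98.9% of miR-2478, and mmu-miR-3968_L-3_1ss14AT made up 96.4–97.5% of miR-3968. cgr-miR-1260 held a smaller part of its number, 83.4–84.6% in MII oocytes and 78.6–81.0% in PN embryos, and 41.4–48.5% in sperm. In sperm cgr-miR-1260_L+1 held 25.4–31.5% of miR-1260, against 1.46–2.08% in the egg stages. These shares of miR-1260 rest on summing identical rows, while cgr-miR-1260_L+1 is on 1 row. With each row counted once its share would be higher.

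miR-11987 had 3 names, all with the same substitution and a shortened 5′ end, and different names were the most abundant in PN embryos and in sperm. bta-miR-11987_L-1R-2_1ss8TA had 13.1, 50.1 and 20.7 CPM in MII oocytes, 407, 332 and 381 in PN embryos and 21.3, 17.9 and 30.5 in sperm. It rose by 3.71 ± 0.35 on the log2 scale from MII oocytes to PN embryos (edgeR q = 4.37e-05), a 13.3-fold higher mean CPM, while MII oocytes and sperm overlapped. Its MII oocyte values stand for only 5, 15 and 6 counts, where a listed 0 could stand for up to 5. bta-miR-11987_L-2_1ss8TA, shorter by a further base at the 5′ end but with its full 3′ end, was instead highest in sperm, at 95.7, 102 and 111 CPM, with 11.8, 21.6 and 10.4 in PN embryos and 0 in MII oocytes. That name held 69.5–75.9% of miR-11987 in sperm and 2.56–5.44% in PN embryos. These shares rest on summing its 2 identical rows and would be lower with each row counted once. bta-miR-11987_L-1_1ss8TA had 28.4, 43.1 and 14.3 in PN embryos, 9.14, 20.2 and 18.3 in sperm and 0 in MII oocytes. Against MII oocytes it was at least 1.82-fold higher in PN embryos, taken against 5 counts in each library. For bta-miR-11987_L-2_1ss8TA the PN embryo mean of 14.6 CPM lay at that floor, so no fold is given. No test is given for these names either, since they passed the filter only through the groups that held them. The blood markers given above were also higher in PN embryos than in MII oocytes, the sperm markers miR-34b and miR-449a had higher means there and miR-34c a lower mean, and whether they bear on miR-11987 was not tested.

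**Figure D5:**
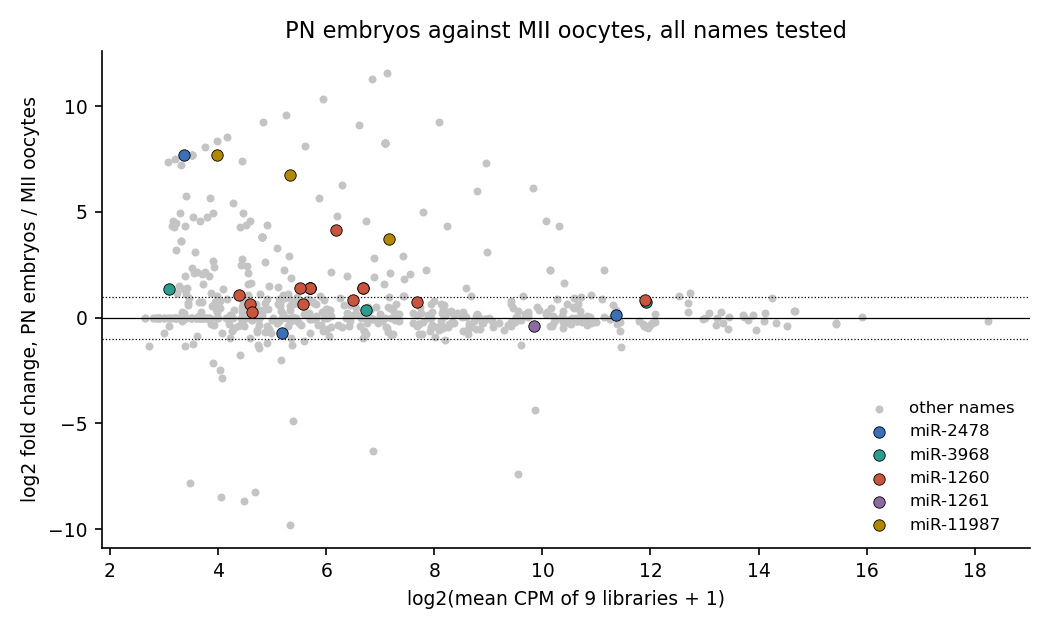
log2 fold change of PN embryos against MII oocytes (y axis) against log2(mean CPM of the 9 libraries + 1) (x axis) for the 587 names tested, members in color and other names in gray, with dotted lines at the fold needed for a call. The members run from -0.72 to 7.7, and all names with fitted values above 5 were listed at 0 in every MII oocyte library, where the fitted fold is not a bound.

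The other 11 members did not pass the filter. They had at most 20.5 counts in any library and fell to miR-2478, miR-3968 and miR-1260.

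Among 6 other miRNA numbers that have been described as tRNA fragments (miR-720, miR-1274, miR-1280, miR-1308, miR-3676 and miR-4454), 1 was listed. hsa-miR-4454_L-2 had 841, 762 and 657 CPM in MII oocytes, 1675, 1594 and 1595 in PN embryos and 6.71, 10.4 and 11 in sperm. It rose by 1.03 ± 0.10 on the log2 scale from MII oocytes to PN embryos (edgeR q = 6.09e-05), against 0.73 ± 0.06 for mmu-miR-3968_L-3_1ss14AT and 0.83 ± 0.05 for cgr-miR-1260. A rise of this size was not particular to these names. ssc-miR-23b_R+1 rose by 1.06 and ssc-miR-425-5p by 1.19, while the median over all names was 0.0832. The source of hsa-miR-4454_L-2 was not tested.

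Profiles like those of the mimicked names were sought among 516 names that are no members, by the root mean square difference of centered log2(CPM + 1) over the 9 libraries. Nearest to mmu-miR-3968_L-3_1ss14AT was hsa-miR-4449_R+2_1ss12TC (0.140), with 338 ± 20.1 CPM in MII oocytes, 533 ± 22.6 in PN embryos and 0 in sperm. It was followed by PC-5p-12024_322 (0.239), pal-miR-9993a-3p_1ss1AG (0.251), ssc-miR-708-5p (0.287) and PC-5p-4084_1104 (0.337). Nearest to bta-miR-2478_L-2 were pal-miR-9993b-3p_1ss6GA (0.233), ssc-miR-187_R+2 (0.273), oan-miR-1386 (0.282), PC-3p-28853_122 (0.295) and ssc-miR-138_R+2 (0.308). Of these, oan-miR-1386 came closest in level, with 3016 ± 148 CPM in MII oocytes, 2692 ± 65.1 in PN embryos and 15.9 ± 1.36 CPM in sperm. The lists had no name in common.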

How the data were processed

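Small RNA libraries were made by ligating adapters to both RNA ends, reverse transcription, PCR and gel selection. The authors deposited estimated counts per miRNA name, marked raw and not normalized, with reads that fit several loci divided among rows. The submitters' processing notes name the build Sscrofa11.1; the aligner and miRNA caller are not given in the sources used here. Replicate numbers came from sample titles, and 0 further columns of sample values were present. Identical rows of a repeated name were summed: for names on 2 rows, 43.17% of values were whole in 1 row and 94.6% after summing (tolerance 0.02). A listed 0 was taken as under 5 counts, since 237 values equaled 5 and 28 whole values lay below it.

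CPM used the library total. Rounded counts of all 9 libraries were fitted in edgeR 4.0.16 (R 4.3.3) with TMM, filterByExpr (minimum count 10), the quasi-likelihood test and Benjamini-Hochberg adjustment over 587 names. The standard error was the log2 fold change divided by the root of its F statistic. Names were called at q under 0.05 when they changed by at least 1 on the log2 scale. Members with a mean of at least 10 CPM were named with values, and, for both mimicked names, the 5 nearest other names. Alternatives were DESeq2 1.42.0 (size factors, Wald test), library totals, 2 other filters, only the groups compared, a replicate block, q alone, merged identical rows, each library left out and, chosen after seeing the data, repeated names counted once and equal depth. A separate run of the same edgeR steps was tested on simulated data, in which no low-count name was changed. Members, lists and tests were chosen with earlier results of these data known. Mimic, primer and circRNA sequences came from the study's supplement.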

Additional observations from a re-analysis of the deposited data

How the results depend on the processing

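Depth limits names under about 13.1–17.3 CPM in MII oocytes, and levels set between names depend on how repeated rows are treated. With identical rows counted once, miR-2478 lay at 1867, 2174 and 13.9 CPM (MII oocytes, then PN embryos, then sperm), miR-1260 at 2435, 4773 and 81.1 CPM, and miR-11987 in sperm at 90.6 CPM. With TMM effective library sizes, PN embryos had 8864 CPM of miR-1260, 1167 of miR-1261, 4123 of miR-2478 and 7274 of miR-3968, and sperm 125.2 CPM of miR-1260. When all names were summed by number before the edgeR fit, the log2 fold change of PN embryos against MII oocytes was 0.89 for miR-1260, -0.42 for miR-1261, 0.13 for miR-2478 and 0.72 for miR-3968, against 0.97, -0.34, 0.21 and 0.80 from library totals.

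The 11 members called in PN embryos against MII oocytes became 4 with the replicate number as a block, and between 5 and 11 with 1 library left out. Between MII oocytes and PN embryos, deviations of libraries with the same replicate number had a mean correlation of -0.0298 (-0.0879 to 0.0273). With 3 libraries a group this cannot settle whether the samples were paired, and the block is given as a setting. Other settings gave 8 to 11 calls, or 16 by q alone. Against sperm, the count of members called stayed within 1.5 times its value under every setting run. Of 424 fold changes of single members under these settings, judged by direction and by q under 0.05 alone, 392 were unchanged, 31 lost significance, 0 gained it and 1 reversed, mml-miR-1260b_R+1_1ss9AG at -0.39 without PN embryos replicate 2 (up to 0.61 with another library left out). The 424 are not independent, since cgr-miR-1260_R+2_1 to cgr-miR-1260_R+2_5 share the same reads. A name that did not pass q in either fit and kept its direction counts as unchanged. By the full rule for calls, with its minimum fold, cgr-miR-1260 (1.04) and cgr-miR-1260_L+1 (1.06) were gained with identical rows merged, and cgr-miR-1260_L+1 (1.05) at equal depth. The filter removed bta-miR-11987_L-1_1ss8TA and bta-miR-2478_L-2_1ss20AT at equal depth. The causes were not tested. DESeq2 size factors moved the median of all names' log2 fold changes by 0.116 in sperm against MII oocytes and by 0.203 in sperm against PN embryos.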

Other observations

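The qPCR primers listed in the study's supplement can be laid on the mimics. They are shown because both names are 18-base RNAs that differ by 1 base, with any base that differs from the mimic in capitals.
Forward primer for bta-miR-2478_L-2: gcgcggtatcccacttctg
Forward primer for mmu-miR-3968_L-3_1ss14AT: gcgcgaatcccactccAg
The last 12 bases of the first matched bases 1 to 12 of its mimic. The last 12 bases of the other matched 11 of 12, with the mismatch U11A, given as the mimic base, its position from the 5′ end and the primer base. Position 11 of the mimic is the base that 1ss14AT marks in a name with 3 bases fewer at the 5′ end, so the primer carried the base of the unsubstituted miRNA there. The same reverse transcription primer was listed for both, and its last 6 bases were complementary to the 3′ end of both mimics. Any effect on a measurement was not tested.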
